A study of Mus musculus with 6 samples.

Results

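The Myc, Max and Mxd network is a set of basic helix-loop-helix leucine zipper transcription factors that compete for dimers with Max. The 10 genes described here (Myc, Mycn, Mycl, Max, Mxd1, Mxd3, Mxd4, Mxi1, Mnt and Mga) were chosen by symbol from 24063 symbols in the files. Earlier results of these data were known when they were chosen. Where a symbol had more than 1 transcript row, the row with the highest total count was used, and a count was set to 0 where its FPKM was 0. All 10 genes had rows and all 10 passed the filter on low counts.

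The proteins of the Myc family bind DNA as dimers with Max, mostly at the E-box CACGTG, and raise transcription of genes for growth, ribosome production and metabolism. The Mxd proteins, Mxi1, Mnt and Mga also dimerise with Max, bind the same sequence and recruit repressive complexes, in most cases through Sin3 and histone deacetylases. In the cerebellum, Mycn is a known target of Hedgehog signalling in granule neuron progenitors, and Myc and Mycn mark different groups of human medulloblastoma.

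The study sequenced RNA from mouse stem-like medulloblastoma cells of cerebellar origin, in which a CRISPR guide targeted the long noncoding RNA Miat. All 6 libraries share the genotype Math1-Cre; SmoM2. SmoM2 is an always active form of the Hedgehog receptor component Smoothened, and Math1-Cre switches it on in cells with a history of Math1 (Atoh1) expression, chiefly granule neuron progenitors. The groups had 2 libraries each, made with sgGal4-4 (labelled WT and used as the control), sgMiat-6 or sgMiat-96 (both labelled as Miat knockdown). The labels give no animal age, number of animals or number of clones, and do not say whether replicates were separate cultures, so the p-values measure only the spread between these samples, which may be technical.

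For Miat itself the control libraries gave counts of 140 and 139, and each of the 4 Miat guide libraries gave 0. Each library held between 18438909 and 19650274 counts in the rows kept. Of the 8 cell type marker lists, the granule neuron progenitor markers summed to 167 to 182 CPM (counts per 1000000, scaled by TMM) in sgGal4-4, 223 to 246 in sgMiat-6 and 225 to 238 in sgMiat-96, and Atoh1, a defining marker, was at 0 in every library. With both guides 5 of these markers rose and 2 fell, Gli1 and Gli2. Neural stem cell markers summed to 3462 to 3575, 5380 to 5989 and 5877 to 6347 CPM in the same order. Of the 5 tested, 2 rose with both guides and 1 fell. Vim went from 1471 and 1521 CPM in the control to between 2714 and 3308, and Fabp7 from 645 and 643 to between 1062 and 1441. Msi1 went from 35.7 and 35.3 to between 21.7 and 31.1. Astrocyte markers summed to 2837 to 2928 CPM in the control and to no more than 838 with either Miat guide, and 6 of the 7 fell. Most of the control sum was Slc1a3 (1942 and 1935 CPM) and Apoe (851 and 778). S100b rose, from 18.3 and 19.1 CPM in the control to between 47.8 and 67.5. Oligodendrocyte markers, nearly all of the sum from Olig1 and Olig2, summed to 1910.4 to 1965 CPM in sgGal4-4, 3071 to 3213 in sgMiat-6 and 4717 to 4805 in sgMiat-96, while Mag was at 0 and Mbp was at most 0.304 CPM. Neuron markers summed to 745 to 747 CPM in the control and to 291 to 498 with the Miat guides, nearly all of it Map2. Tubb3, the other neuron marker tested, rose, from 0.206 and 0.152 CPM in the control to between 5.26 and 9.16. Microglial, endothelial and fibroblast markers summed to at most 2.83, 6.94 and 9.84 CPM in any library. The part of these marker changes in the results below was not tested. In bulk RNA, fewer cells of a type and less RNA per cell cannot be told apart.

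E-boxes in the genes' own start regions are shown because Max dimers bind that sequence. Windows from 250 bases before to 50 after the start (RefSeq, GRCm38.p6) were matched for 9 of the 10 genes, Myc not among them. The palindrome CACGTG was in the windows of Max, Mnt and Mxd4, and 7.15% of all 32851 windows hold it. The letters CACGCG or their reverse CGCGTG were in the windows of Mga and Mycl, against 9.27% of all windows. The Gli motif GACCACCCA or its reverse TGGGTGGTC was in none of the members' windows and in 0.253% of all windows. A match of letters is a description, not a binding site. The windows with CACGTG follow on each gene's own strand, 5′ to 3′, with the E-box in capitals. The Max window is chr12:76962199-76962498 on the minus strand, with the E-box at position -3 from the start base. The Mnt window is chr11:74830674-74830973 on the plus strand, with the E-box at position -123. The Mxd4 window is chr5:34187661-34187960 on the minus strand, with the E-box at position -219.
Max: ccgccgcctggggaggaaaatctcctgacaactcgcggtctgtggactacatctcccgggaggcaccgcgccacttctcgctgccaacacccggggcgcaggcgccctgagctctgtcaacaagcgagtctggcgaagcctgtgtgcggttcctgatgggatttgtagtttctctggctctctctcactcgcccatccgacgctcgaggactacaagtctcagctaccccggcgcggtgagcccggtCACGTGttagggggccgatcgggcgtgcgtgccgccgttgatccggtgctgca
Mnt: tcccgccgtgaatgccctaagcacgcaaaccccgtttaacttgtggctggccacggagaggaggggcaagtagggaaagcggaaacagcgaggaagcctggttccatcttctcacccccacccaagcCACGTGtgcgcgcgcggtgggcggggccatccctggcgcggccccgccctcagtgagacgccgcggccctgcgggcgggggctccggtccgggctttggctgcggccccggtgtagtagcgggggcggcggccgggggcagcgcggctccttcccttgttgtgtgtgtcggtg
Mxd4: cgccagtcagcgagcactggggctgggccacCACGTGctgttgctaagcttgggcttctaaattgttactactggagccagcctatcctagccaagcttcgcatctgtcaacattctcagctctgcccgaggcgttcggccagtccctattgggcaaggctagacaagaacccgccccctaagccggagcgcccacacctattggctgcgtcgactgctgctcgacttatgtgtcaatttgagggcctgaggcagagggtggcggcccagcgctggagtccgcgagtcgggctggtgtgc

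With both Miat guides against sgGal4-4, Myc, Mycn, Mxi1 and Mga fell, and Mxd1, Mxd3 and Mxd4 rose. That is 7 of 10 genes called by edgeR's quasi-likelihood test at an adjusted p under 0.05, 3 higher and 4 lower, where 66.5% of all 13219 genes tested were called, 33.1% higher and 33.4% lower. The share of called members is thus near that of the whole transcriptome, and the description rests on the size and direction of each gene. The same 7 genes were called in the same directions with sgMiat-6 alone (53.0% of all genes called, 26.9% higher and 26.1% lower) and with sgMiat-96 alone (68.2%, with 34.0% higher and 34.2% lower). Both comparisons share the sgGal4-4 libraries. The members' median log2 fold change with both guides was -0.11, against 0.00 over all genes.

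Changes over all genes followed transcript length. In the contrast of both guides the median log2 fold change was 0.49 in the shortest of 5 equal length classes (up to 1554 bp), 0.20, 0.01 and -0.16 in classes 2, 3 and 4, and -0.49 in the longest (from 4705 bp). The gradient was wider with sgMiat-96, from 0.70 to -0.70, than with sgMiat-6, from 0.29 to -0.27. Mxd3 and Mxd4 lie in the shortest class, and Mxi1 and Mga in the longest, so each moved in the direction of its length class. Myc and Mxd1 moved against the median of theirs (classes 2 and 4), and the class of Mycn (class 3) had a median of 0.01. Values with the length trend removed are therefore given beside each of these genes.

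**Figure D1:**
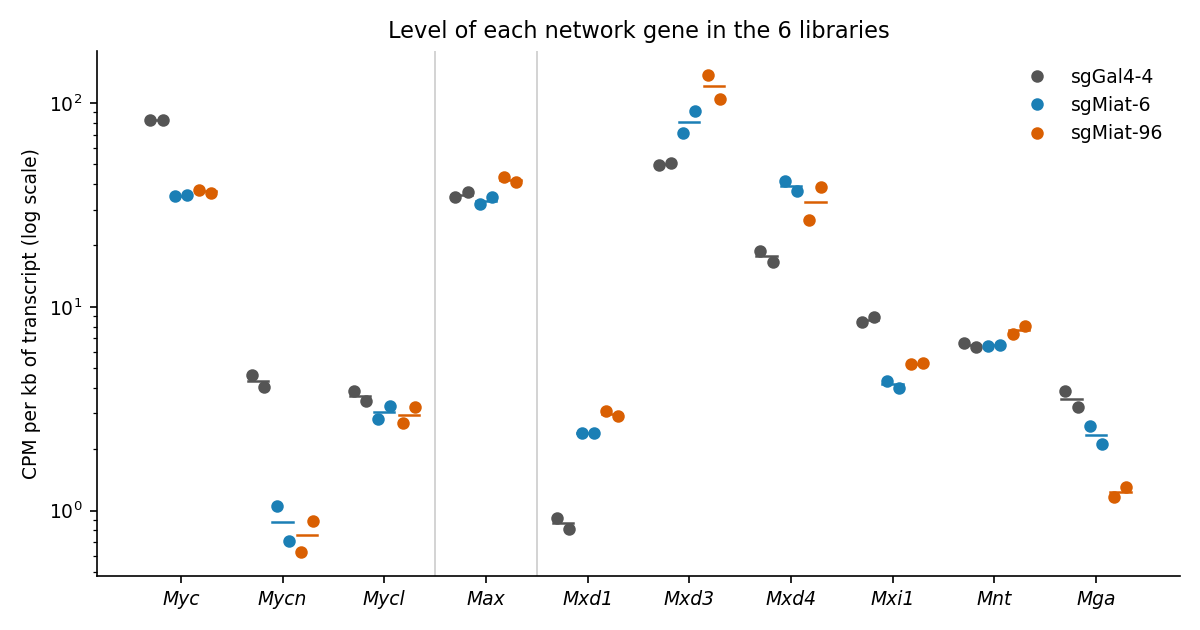
Level of the 10 network genes in each library, in CPM per kb of transcript on a log scale; points are the 6 libraries coloured by guide, lines are group means (n = 2), and grey lines part the Myc family, Max and the repressors. Myc was the highest of the 10 in sgGal4-4 at 82.5 CPM per kb, and Mxd3 was the highest with sgMiat-6 (81.2) and sgMiat-96 (121).

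Myc, the founding member of the family (chr15:61985391-61990374, plus strand, GRCm38), had 197 and 199 CPM in the sgGal4-4 libraries, 83.5 and 84.9 in sgMiat-6, and 90.1 and 86.6 in sgMiat-96. All 4 Miat guide libraries lay below both controls. The fall with both guides was 2.30-fold, a log2 fold change of -1.20 ± 0.08 (SE; edgeR's quasi-likelihood test, adjusted p = 6.59e-08), and it was -1.23 ± 0.10 with sgMiat-6 and -1.16 ± 0.10 with sgMiat-96. Myc did not differ between the Miat guides beyond its error (log2 difference 0.07, with ±2 SE from -0.13 to 0.27). With the length trend removed the fall was -1.27.

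Mycn, the paralog that Hedgehog signalling induces in granule neuron progenitors (chr12:12936093-12941914, minus strand), was far less abundant. Its counts were 232 and 208 in sgGal4-4, 55 and 36 in sgMiat-6, and 29 and 40 in sgMiat-96, which are 12, 10.5, 2.73, 1.84, 1.63 and 2.31 CPM. Every Miat guide library lay below both controls, and the Miat guide groups overlapped each other. The fall with both guides was 5.29-fold, a log2 fold change of -2.40 ± 0.20 (edgeR's quasi-likelihood test, adjusted p = 4.28e-07), and with the length trend removed it was -2.39. Gli1 and Gli2, transcription factors of the Hedgehog pathway, fell in the same libraries. Gli1 went from 16.8 and 15.3 CPM in the control to between 1.83 and 2.81, and Gli2 from 33.4 and 27.8 to between 5.37 and 9.22, and the part of this in the fall of Mycn was not tested. With sgMiat-96 against sgMiat-6 the log2 difference of Mycn was -0.22, with ±2 SE from -0.81 to 0.38.

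Mycl, the third family member (chr4:122995652-123002485, plus strand), had 13.5 and 12.1 CPM in sgGal4-4, 9.87 and 11.4 in sgMiat-6, and 9.39 and 11.3 in sgMiat-96. The Miat guide libraries were all lower than the controls, but the log2 fold change of -0.29 ± 0.15 did not pass (edgeR's quasi-likelihood test, adjusted p = 0.0998). Its ±2 SE range runs from -0.59 to 0.01.

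Mycn fell further than Myc in every library with a Miat guide. Per kb of transcript, Myc exceeded Mycn 17.8 and 20.5 times in the controls, 33.2 and 50.0 times in sgMiat-6, and 59.8 and 40.6 times in sgMiat-96, with no overlap between control and Miat guides. The log2 ratio of Mycn to Myc differed from the control by -1.23 with both guides, a 2.35-fold shift. An exact permutation test over the 4 and 2 libraries gave a two-sided p = 0.133, the smallest this design allows. Between the Miat guides the log2 ratio differed by -0.28 (exact permutation test, p = 0.667). Within the family, Myc nevertheless made up 89.8% to 91.9% of the counts per kb in all 6 libraries. The share of Mycn went from 5.09% and 4.48% in the controls to between 1.54% and 2.71%, and that of Mycl from 4.27% and 3.82% to between 6.57% and 8.27%, so that Mycl exceeded Mycn in each Miat guide library.

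Max, the common partner (chr12:76937269-76962201, minus strand), did not pass the test with both guides. It had 69.2 and 73.0 CPM in sgGal4-4, 63.7 and 69.5 in sgMiat-6, and 86.6 and 81.9 in sgMiat-96. The sgMiat-6 libraries overlapped the controls and the sgMiat-96 libraries lay above them. The log2 fold change with both guides was 0.07 (edgeR's quasi-likelihood test, adjusted p = 0.508, ±2 SE from -0.12 to 0.27), and this direction reversed under total count scaling (-0.06) and with the length trend removed (-0.11). It was higher in sgMiat-96 than in sgMiat-6 by 0.34 ± 0.11 (edgeR's quasi-likelihood test, adjusted p = 0.0297), and with the length trend removed this difference was 0.18 and no longer called (adjusted p = 0.133, same test). It was called under 8 of 15 alternatives.

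**Figure D2:**
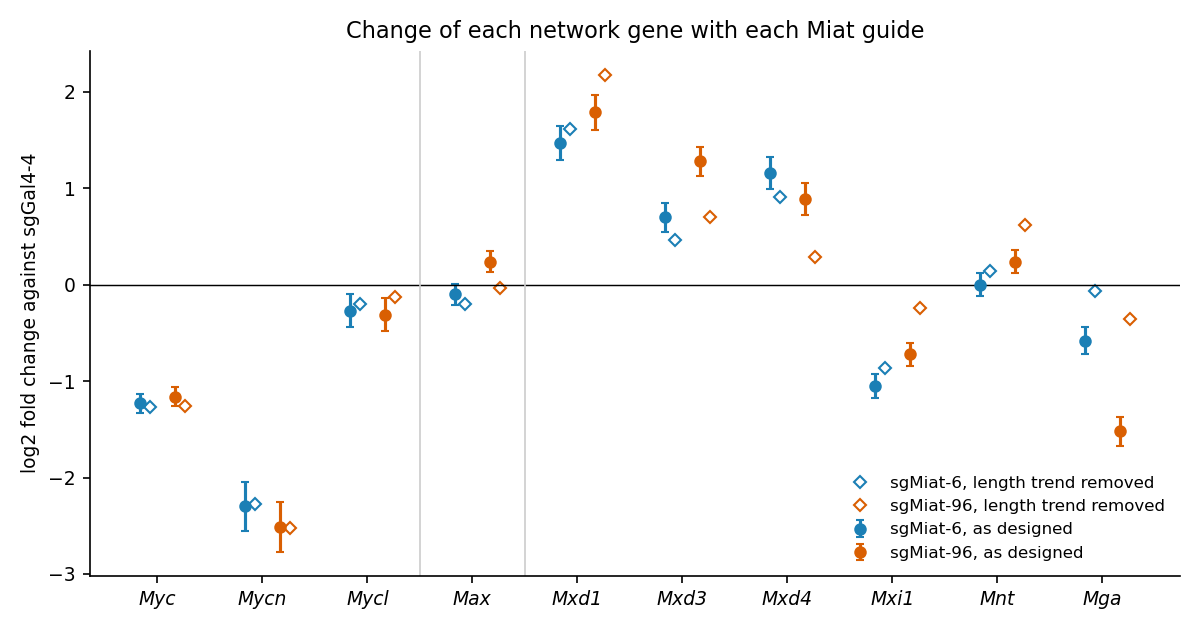
Log2 fold change of each network gene against sgGal4-4, for sgMiat-6 and sgMiat-96; filled points with bars are the fitted values ± SE, and open diamonds are the same values once the transcript length trend is taken out. For Myc the open and filled points nearly coincide (-1.27 and -1.23 with sgMiat-6), while Mga with sgMiat-96 moves from -1.52 to -0.36.

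Of the 6 genes for Max-dimer repressors, 3 rose with both guides, and Mxd1 rose most. Mxd1, which is induced as many cell types differentiate (chr6:86647042-86669161, minus strand), went from 4.28 and 3.80 CPM in the controls to 11.2 and 11.2 in sgMiat-6 and 14.3 and 13.6 in sgMiat-96. All 4 values lay above both controls. The rise with both guides was 3.09-fold, a log2 fold change of 1.63 ± 0.16 (edgeR's quasi-likelihood test, adjusted p = 1.83e-06), and 1.90 with the length trend removed. Per kb it was the lowest of the 10 genes in the control, at 0.866 CPM per kb.

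Mxd3, a repressor with a known role in proliferating neural progenitors (chr13:55325168-55329823, minus strand), had 64.4 and 65.7 CPM in sgGal4-4, 92.7 and 118 in sgMiat-6, and 179 and 136 in sgMiat-96. The 3 groups did not overlap. The log2 fold change with both guides was 0.99 ± 0.13, a 1.98-fold rise (edgeR's quasi-likelihood test, adjusted p = 2.32e-05), and 0.58 with the length trend removed, still called. Its rise was larger with sgMiat-96 than with sgMiat-6 by 0.58 ± 0.14 (adjusted p = 0.00846, same test). With the length trend removed that difference was 0.25 and not called (adjusted p = 0.09, same test). Mxd3 overlaps Prelid1 on the opposite strand by 105 bp, and the labels do not state whether counting used strand, so reads there cannot be told apart.

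Mxd4 (chr5:34173883-34187720, minus strand), another Mxd repressor, had 22.2 and 19.5 CPM in sgGal4-4, 49.1 and 43.6 in sgMiat-6, and 31.6 and 45.7 in sgMiat-96. Each Miat guide library lay above both controls, and the sgMiat-96 replicates differed most. The log2 fold change with both guides was 1.02 ± 0.15 (edgeR's quasi-likelihood test, adjusted p = 5.27e-05), and 0.60 once the length trend was taken out. With sgMiat-96 alone it was 0.89 ± 0.17, and 0.29 and not called once the trend was removed (adjusted p = 0.209, same test). An antisense gene, Gm42846, overlaps Mxd4 on the opposite strand. Other members have overlaps too. AC133451.2 (5146 bp) and Gm10197 (201 bp) overlap Mxi1 on the opposite strand. On the same strand, Gm44292 overlaps Mxd1 (2364 bp) and Gm47218 overlaps Max (1319 bp).

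Mxi1 (chr19:53310518-53375810, plus strand), also known as Mxd2 and a repressor that recruits Sin3, moved the other way. Its CPM was 43.6 and 45.7 in sgGal4-4, 22.4 and 20.7 in sgMiat-6, and 26.9 and 27.4 in sgMiat-96, with every Miat guide library below both controls. The log2 fold change was -0.88 ± 0.10 with both guides, a 1.85-fold fall (edgeR's quasi-likelihood test, adjusted p = 7.21e-06). It was -0.55 with the length trend removed, still called, but with sgMiat-96 alone it went from -0.72 to -0.24 (adjusted p = 0.055, same test). Of the other 9 network genes, Mxi1 had the profile most like that of Myc over the 6 libraries, with a root mean square difference of 0.190 in centred log2 CPM.

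Mnt, a broadly expressed antagonist of Myc (chr11:74830920-74845725, plus strand), had 30.5 and 29.0 CPM in sgGal4-4, 29.6 and 29.8 in sgMiat-6, and 33.7 and 36.9 in sgMiat-96. The sgMiat-6 values fell within the control range and the sgMiat-96 values lay above it. The log2 fold change with both guides was 0.12, with ±2 SE from -0.09 to 0.33 (edgeR's quasi-likelihood test, adjusted p = 0.338). Under total count scaling it was -0.01, and with the length trend removed it was 0.38 and called (adjusted p = 0.0028, same test).

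Mga, a large protein with a T-box as well as a helix-loop-helix domain and a scaffold of a noncanonical Polycomb complex (chr2:119897228-119969581, plus strand), fell with each guide, and further with sgMiat-96. Its CPM was 53.7 and 44.9 in sgGal4-4, 36.3 and 29.5 in sgMiat-6, and 16.2 and 18.2 in sgMiat-96, without overlap. The log2 fold change was -0.58 ± 0.14 with sgMiat-6 and -1.52 ± 0.15 with sgMiat-96, and the direct difference of -0.93 ± 0.15 was called (edgeR's quasi-likelihood test, adjusted p = 0.00123). Mga has the longest transcript of the 10, at 13931 bp. With the length trend removed its change was -0.21 with both guides (adjusted p = 0.0425, same test), -0.06 with sgMiat-6 (adjusted p = 0.611, same test), -0.36 with sgMiat-96 (adjusted p = 0.00777) and -0.30 between the guides (adjusted p = 0.0517). Without sgGal4-4 replicate 1 the sgMiat-6 change was -0.45 and not called (adjusted p = 0.0687, same test).

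In the direct comparison of sgMiat-96 with sgMiat-6, 3 of the 10 genes were called (Max and Mxd3 higher, Mga lower), against 36.7% of all genes (17.9% higher, 18.8% lower). None of these 3 was called with the length trend removed, where 3222 of all 13219 genes were called (1740 higher, 1482 lower). In that setting 4 others were called: Mxd1 (0.56), Mxi1 (0.62) and Mnt (0.48) higher and Mxd4 (-0.62) lower in sgMiat-96 (edgeR's quasi-likelihood test, adjusted p = 0.0228, 0.00252, 0.00728 and 0.0311 in that order). Without sgMiat-6 replicate 1 the log2 differences were 0.27 for Max, 0.41 for Mxd3 and -0.78 for Mga. Without sgMiat-96 replicate 1 they were 0.30, 0.37 and -0.85 in that order.

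Set against each other within each library, the repressors gained on the Myc family, as the family sum fell and the repressor sum rose. The family sum went from 90.5 and 90.6 CPM per kb in sgGal4-4 to between 38.7 and 40.9 with the Miat guides. The repressor sum went from 88.3 and 86.3 to between 129 and 181, although Mxi1 and Mga fell. The repressors' summed counts per kb were 0.976 and 0.952 times those of Myc, Mycn and Mycl in sgGal4-4, 3.33 and 3.63 times in sgMiat-6, and 4.44 and 4.01 times in sgMiat-96. The groups did not overlap. The log2 ratio was higher by 1.99 with both guides, a 3.97-fold shift (exact permutation test, two-sided p = 0.133, the smallest this design allows). It was 1.77 with the length trend removed, 1.49 from summed counts without division by length, and 2.03 without Mga. The repressor sum rests mostly on Mxd3, which made up 55.4% to 75.9% of the repressors' counts per kb in the 6 libraries. Between the Miat guides the log2 ratio differed by 0.28 (exact permutation test, p = 0.333). That p is the smallest this comparison allows, so the test cannot tell whether the guides differ.

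**Figure D3:**
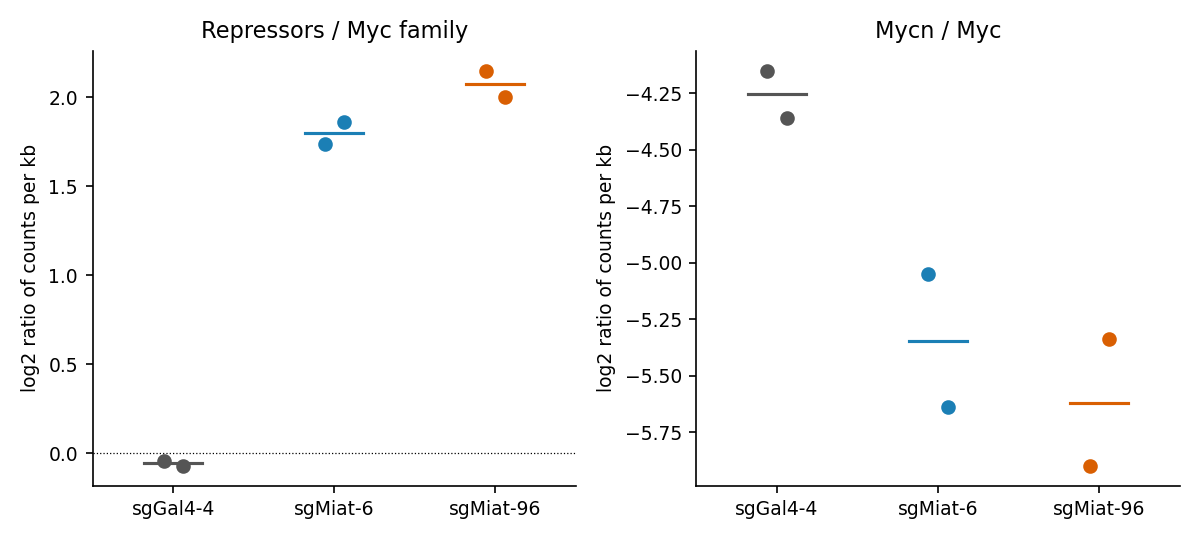
Left, log2 ratio of the summed counts per kb of the 6 repressor genes to those of Myc, Mycn and Mycl; right, log2 ratio of Mycn to Myc. Points are libraries and lines are group means (n = 2); the controls sit at -0.04 and -0.07 on the left and at -4.15 and -4.36 on the right, apart from all 4 Miat guide libraries in both plots.

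The order of levels per kb of transcript changed accordingly. In sgGal4-4 it ran from Myc (82.5 CPM per kb) through Mxd3 (50.1), Max (35.5), Mxd4 (17.6), Mxi1 (8.66), Mnt (6.50), Mycn (4.33), Mycl (3.66) and Mga (3.54) to Mxd1 (0.866), where only Mycl and Mga overlapped as neighbours. In sgMiat-6 Mxd3 led (81.2), Mxd4 (39.3), Myc (35.1) and Max (33.2) came next, and Mycn (0.879) was last. With sgMiat-96, Mxd3 (121), Max (42.0), Myc (36.8) and Mxd4 (32.8) led, with Myc and Mxd4 overlapping, and Mycn (0.759) was again last.

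Values for the surroundings of Myc and Mycn show how far each gene stood from its chromosome. The other 417 tested genes of chromosome 15 had a median log2 fold change of -0.37 with both guides, the second lowest of 20 chromosomes after chromosome 1 (-0.48), and Myc differed from it by -0.83. For chromosome 12 the median was -0.07, and Mycn differed from it by -2.33. Within 1.5 Mb of Myc, 3 genes were tested and all fell with both guides: the long noncoding RNA Pvt1, 48 kb away, by 0.74 ± 0.10 on the log2 scale (edgeR's quasi-likelihood test, adjusted p = 2.18e-05), Fam84b by 0.60 and 9930014A18Rik by 1.06. Fam84b averaged 20.2 CPM in sgGal4-4, 18.6 in sgMiat-6 and 9.51 in sgMiat-96, and 9930014A18Rik averaged 8.99, 7.20 and 2.60 CPM, so the lowest levels of both were with sgMiat-96. Myc averaged 198, 84.2 and 88.4 CPM in the same order, so with sgMiat-96 9930014A18Rik fell by a larger factor than Myc. Pvt1 counts were 1099 and 1216 in sgGal4-4, 728 and 744 in sgMiat-6, and 587 and 594 in sgMiat-96. Of the 5 tested genes within 1.5 Mb of Mycn, Nbas fell (-1.03 ± 0.11), Ddx1 fell (-0.24 ± 0.09), Fam84a rose (0.78 ± 0.12), and Fam49a (-0.12) and 4921511I17Rik (-0.68) did not pass.

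**Figure D4:**
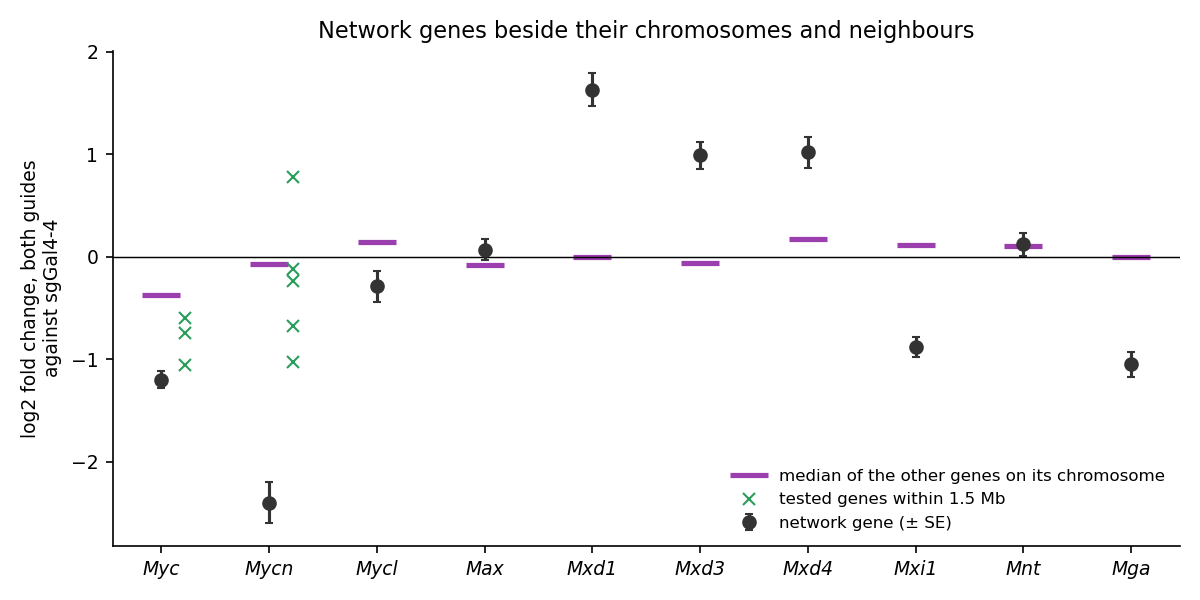
Log2 fold change with both Miat guides for each network gene (black, ± SE), the median of the other tested genes on its chromosome with a mean of at least 5 CPM (purple) and, for Myc and Mycn, the tested genes within 1.5 Mb (green crosses). Myc at -1.20 ± 0.08 lies below the chromosome 15 median of -0.37. Its 3 tested neighbours also fell, and 9930014A18Rik at -1.06 ± 0.20 lies within its error of Myc. Mycn at -2.40 lies below all 5 of its own tested neighbours.

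The genes with profiles most like Myc were Stom, Tmem184b and Gpr56, with root mean square differences of 0.0409, 0.0577 and 0.0659 in centred log2 CPM over the 6 libraries, among 10077 genes. For Mycn they were Arap2 (0.0905), Myo1e (0.112) and Six4 (0.13). Mycn itself ranked 5204 of 10077 in likeness to Myc, and Myc ranked 570 in likeness to Mycn. The measure counts the size of a change as well as its direction, and both genes fell in all 4 Miat guide libraries.

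Among the proteins that act with the network, activating cofactors of Myc had 5 of 22 genes higher and 9 lower with both guides (median log2 fold change -0.09, against 0.00 over all genes, of which 33.1% were higher and 33.4% lower). The split turned to 8 higher and 6 lower with the length trend removed (median 0.01), where all 13219 genes split into 4522 higher and 4147 lower. Ccnt1, the cyclin T1 subunit of the elongation factor P-TEFb, went from 41.1 ± 1.89 CPM in sgGal4-4 to 12.3 ± 6.08 in sgMiat-6 and 2.20 ± 0.967 in sgMiat-96 (SD, n = 2 each). The acetyltransferase Ep300 (-1.19) and the chromatin remodelling subunit Bptf (-0.91) also fell on the log2 scale, while the acetyltransferase Kat5 (0.67), Actl6a (0.52) and the methyltransferase subunit Wdr5 (0.47) rose.

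Repressing cofactors of Mxd, Mnt and Mga had 10 of 23 genes higher (43.5%) and 7 lower (30.4%), with a median of 0.11, against 33.1% and 33.4% of all genes. Under total count scaling the split was 8 higher and 9 lower (median -0.01), where all 13219 genes split into 3583 higher and 5196 lower (median -0.126). Higher were Suds3 (0.80) and Sap30 (0.74), subunits of the Sin3 complex, and the deacetylase Hdac1 (0.72), which went from 129 ± 1.23 CPM to 211 ± 1.54 and 214 ± 2.94. Lower were Rybp (-1.08) and Rnf2 (-0.76), of the Polycomb complexes, and the corepressor Ncor1 (-0.96).

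Regulators of Myc protein stability had 5 of 21 tested genes higher (23.8%) and 10 lower (47.6%), against 33.1% and 33.4% of all genes (median -0.12, with transcripts of 3808 bp in the median against 2844 bp overall), and Trim6 was not tested. Fbxo28 (-0.95), the ubiquitin ligase Huwe1 (-0.93) and the deubiquitinase Usp36 (-0.62) fell, and the ubiquitin ligase Stub1 (0.74) and the scaffold Axin1 (0.58) rose. With the length trend removed the split turned to 8 higher and 5 lower, where all 13219 genes split into 4522 higher and 4147 lower. In the linked Mondo and Mlx arm, which senses glucose, 3 of 4 tested genes rose with both guides (Arrdc4 by 0.78, Mlx by 0.73 and Txnip by 0.40), where 33.1% of all genes did. With sgMiat-6 alone 2 of the 4 were higher, and with sgMiat-96 alone 3 were higher and 1 lower. Txnip had 53.7 ± 1.54 CPM in sgGal4-4, 55.6 ± 5.30 in sgMiat-6 and 89.8 ± 2.31 in sgMiat-96.

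Of the genes known as activated by Myc, 24 of 54 tested were higher (44.4%) and 13 lower (24.1%), with a median of 0.13, against 33.1% and 33.4% of all genes. Under total count scaling 18 were higher and 18 lower (median 0.0), where all 13219 genes split into 3583 higher and 5196 lower (median -0.126). The lactate dehydrogenase gene Ldha rose from 716 ± 9.11 CPM to 1674 ± 108 and 2462 ± 175, and Apex1 (1.05) and Phb (1.02) rose too. The serine hydroxymethyltransferase gene Shmt2 fell from 529 ± 7.74 to 218 ± 22.1 and 255 ± 10.7 CPM, and nucleolin, Ncl (-0.99), and the RNA helicase Ddx18 (-0.98) fell too. Of 7 tested genes known as repressed by Myc, 2 rose and 4 fell (28.6% and 57.1%, median -0.53), against 33.1% and 33.4% of all genes. Those that rose were the cell cycle inhibitor Cdkn1a, from 116 ± 2.41 CPM to 489 ± 25.5 and 641 ± 29.4, and Thbs1, from 0.638 ± 0.0286 to 5.02 ± 0.751 and 8.74 ± 2.34, while Gadd45a (-0.65) and Cebpa (-0.53) fell.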

How the data were processed

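RNA from 6 libraries (3 guides, 2 replicates each) was read as mRNA-seq. Per the submitters' processing notes, the aligner was STAR and the build GRCm38 (mm10). Its version, the counter, the annotation and the strand setting were not given in the sources used here. Per the file headers, a deposited file holds a whole-number count, an FPKM and a TPM for each RefSeq transcript. The deposited FPKM values were used for transcript lengths and for finding zeros, and the deposited TPM values were not used. A count of 1 stands beside an FPKM of 0 in 11223 rows of sgMiat-96 replicate 2, and 0 was used there. One row per symbol was kept, that with the highest total count (24063 of 33984 rows).

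Counts were tested with edgeR 4.0.16 (quasi-likelihood, TMM, filterByExpr by group) in R 4.3.3 over all 6 libraries and 3 groups, leaving 3 residual degrees of freedom, with Benjamini-Hochberg adjustment over 13219 genes and a threshold of 0.05. Contrasts were both Miat guides against sgGal4-4, each guide alone, and sgMiat-96 against sgMiat-6. Levels are TMM-scaled CPM, and CPM per kb divides by transcript length. Per-library ratios were tested by exact permutation in Python 3.11.15. The script for the fits was tested on simulated data. Replicate pairs varied beyond counting noise (chi-square per gene 4.12, 19.1 and 14.0, where noise gives 1). Gene positions are from GENCODE on GRCm38. Start-region sequences are from RefSeq. Alternatives were DESeq2 1.42.0, RLE and total count scaling, no filter, the longest row, counts as listed, a replicate block, each library left out, and a loess trend on transcript length removed (span 0.3). Intervals and SEs describe these libraries only.

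The members, gene lists and tests were chosen with earlier results of these data known. Named beside the 10 members and Miat were, per list, up to 3 called genes with the highest and 3 with the lowest change at a mean of at least 2 CPM, the 3 genes with the most similar profile to Myc and to Mycn at a mean of at least 5 CPM, and the genes within 1.5 Mb of each. One gene that this rule names is not reported here.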

Additional observations from a re-analysis of the deposited data

Results flagged for a closer look

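The effect of the Miat guides differed between sgMiat-6 and sgMiat-96 for 3 of the 10 network genes, by edgeR's quasi-likelihood test of the direct difference. Over all 13219 genes tested, 36.7% were called in this comparison, so the count of members does not set the network apart. Max was higher in sgMiat-96 by 0.34 on the log2 scale, without overlap between the guides. Mxd3 was higher in sgMiat-96 by 0.58. Mga was lower in sgMiat-96, with a log2 difference of -0.93. With the length trend removed none of these 3 differences was called, while those of Mxd1 (0.56), Mxd4 (-0.62), Mxi1 (0.62) and Mnt (0.48) were. In that setting 3222 of all 13219 genes were called.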

How the results depend on the processing

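With both guides, Myc (-1.33 to -1.18), Mycn (-2.56 to -2.28), Mxd1 (1.5 to 1.90), Mxd3 (0.58 to 1.08), Mxd4 (0.60 to 1.15), Mxi1 (-1.01 to -0.55) and Mga (-1.18 to -0.21) were called under all 15 alternatives. Of the single-gene values over all comparisons, 561 kept their call without a turn of sign, 14 gained and 15 lost the call, and 10 changed sign, none of them called either way. Mnt with sgMiat-6, at 0.00, had no direction to keep and ran from -0.06 to 0.14. The 10 were Max with both guides (-0.06 under total counts, -0.11 with the length trend removed), Mnt with both (-0.01, total counts), Max with sgMiat-96 (-0.03, length trend removed), and, between the Miat guides, Myc (-0.08, total counts), Mycn (0.09 without sgMiat-6 replicate 1, 0.01 without sgMiat-96 replicate 1) and Mycl (0.07 with the length trend removed, 0.05 without sgMiat-6 replicate 2, 0.08 without sgMiat-96 replicate 1). With a library left out, the Mycn difference between the Miat guides ranged from -0.49 to 0.09 and that of Mycl from -0.18 to 0.08. The cause was not tested. The members called between the Miat guides numbered 1 to 4 with a library left out, against 3. All genes called between them numbered 4851, against 1124 without sgMiat-96 replicate 1, 2251 without sgMiat-6 replicate 1 and 3222 with the length trend removed. Activating cofactors had 3 genes higher and 11 lower under total counts, and 8 and 6 with the length trend removed, against 5 and 9. Regulators of stability had 8 higher and 5 lower with that trend removed, against 5 and 10. Total count scaling moved the median of all genes to -0.126 with both guides, -0.202 with sgMiat-96 and -0.139 between the Miat guides, and split the calls with both guides into 3583 higher and 5196 lower, against 4378 and 4415. Same-numbered replicates did not deviate together (correlations 0.054, -0.15 and -0.361 over 10582 genes), so the numbers were not taken as pairs. With the replicate block, 7, 7, 7 and 2 members were called in the 4 comparisons, against 8343, 6445, 8562 and 4044 of all 13219 genes. With the numbers of sgMiat-96 crossed, 7, 7, 8 and 4 members were called, against 9200, 7687, 9408 and 5756 of all genes. The crossing was chosen after seeing the data, as was the length trend for the 2 ratios. Mycn, at 29 to 55 counts per Miat guide library, is the member whose precision depth limits most.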
